A study of Mus musculus with 12 samples.

Results

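Macrophages sorted from mouse adipose tissue into LYVE1+ and LYVE1- cells were compared by bulk RNA sequencing, across all genes with counts. The comparison used 6 of the 12 libraries of the series, 3 of each sort, taken by their labels. The other 6 libraries hold the same sorts from the aorta of 30 mice and serve as a second tissue. All 12 libraries were fitted together, so the aortic libraries also entered the filter, the scaling and the spread behind the fat p-values. All cells came from adult wild type mice of the C57/BL6 strain, and the labels name no treatment and no transgene in any group. The fat cells were collected from epididymal and subcutaneous fat of 20 mice, so differences between these depots cannot be seen. The sort kept DAPI-negative (live) cells with surface F4/80, CD11b, MerTK, CD64 and CD45, and divided them by the surface protein LYVE-1. Nothing in the labels says that the 3 libraries of a sort came from separate pools of mice. The p-values measure only the spread between libraries of the same sort and tissue, over both tissues, which may be technical.

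LYVE-1 is a receptor for hyaluronan, a long sugar polymer of the extracellular matrix, and is best known from lymphatic vessels. In many tissues it also marks macrophages that lie along blood vessels and are described as long-lived, scavenging resident cells. LYVE1- macrophages of the same tissues are described as richer in MHC class II molecules, which present antigen to helper T cells, and in cells that arise from blood monocytes. In fat, macrophages clear dying adipocytes, take up lipid and lie beside vessels and nerves.

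The fat libraries held 5049936 to 12033475 counts each. A total of 22776 genes had a count in at least 1 of them, of 46517 in the table, and 14216 passed the filter on low counts that was set over all 12 libraries. The libraries numbered 1 of both sorts stood apart. Mitochondrial transcripts made up 8.85% of the counts of LYVE1+ library 1 and 12.1% of LYVE1- library 1, against 2.69% to 3.2% in the other 4. The 9 erythroid markers summed to 25144 and 5213 CPM (each gene's count relative to the library's total, with TMM factors) in these libraries and to 220 to 298 CPM in the others. The 17 T and NK cell markers summed to 394 and 225 CPM against 32.8 to 52.1 CPM. Within a sort, libraries 2 and 3 were more alike than either was to library 1. A chi-square statistic of their counts was 8.05 per degree of freedom for LYVE1+ and 10.1 for LYVE1-, beyond sampling noise, against 104 to 111 for every pair that held library 1.

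**Figure D1:**
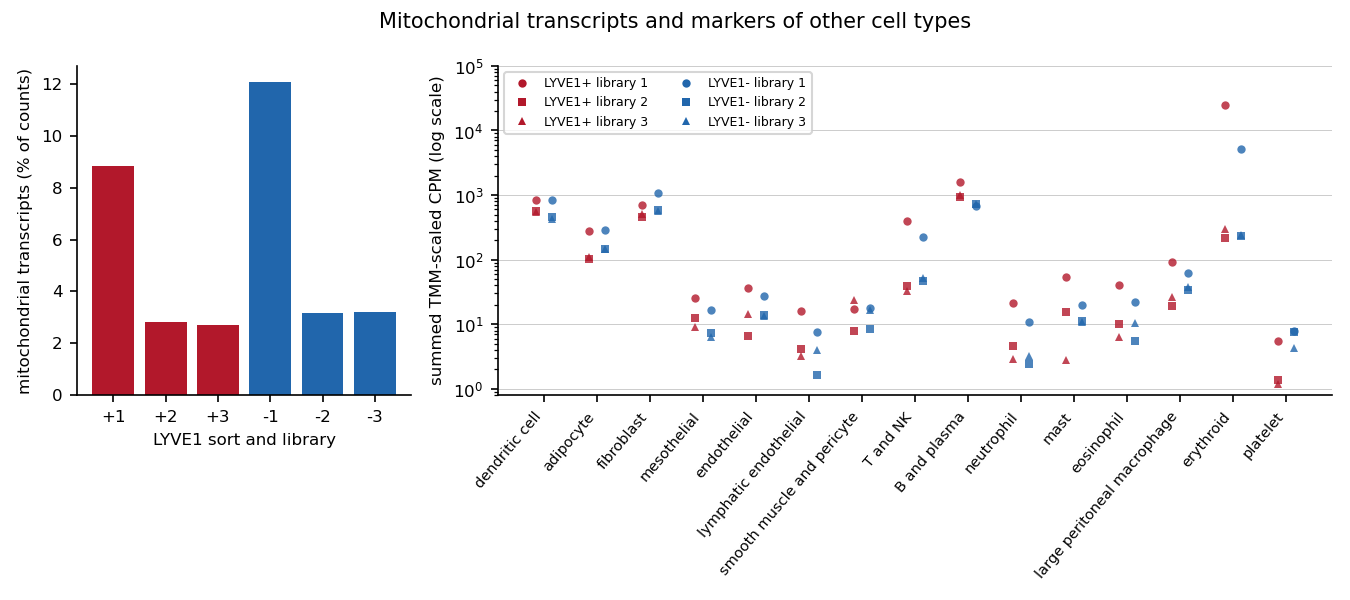
Left, mitochondrial transcripts as a percentage of all counts in each fat library; right, summed TMM-scaled CPM of 15 marker lists of other cell types on a log scale, with 1 point per library. The libraries numbered 1 hold 8.85% and 12.1% mitochondrial transcripts and the highest erythroid sums, 25144 and 5213 CPM.

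Of the 14216 genes tested, 558 were called different between LYVE1+ and LYVE1- fat macrophages (3.93%; edgeR, Benjamini-Hochberg adjusted p below 0.05). LYVE1+ cells had 259 of them higher (1.82% of all genes) and 299 lower (2.1%), and 405 (2.85%) differed by more than 2-fold. The median log2 fold change of all tested genes was 0.005. In 2693 genes (18.9%) the 3 libraries of the sorts did not overlap, with LYVE1+ higher in 9.12% and lower in 9.83%. The values of LYVE1+ library 1 often lay nearest to the other sort: this was so for 198 of the 259 higher genes and for 166 of the 299 lower ones. Without both libraries numbered 1 the call was made for 887 genes (6.01% of 14769; 2.75% higher and 3.26% lower), and with the library number as a replicate block for 915 (6.44%; 3.14% higher and 3.3% lower). It was made for 219 and 235 genes without LYVE1+ libraries 2 and 3, for 1025 without LYVE1+ library 1, and for 324 without LYVE1- library 3. In the fit of the fat libraries alone 202 genes were called (1.61%; 0.66% higher and 0.946% lower).

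**Figure D2:**
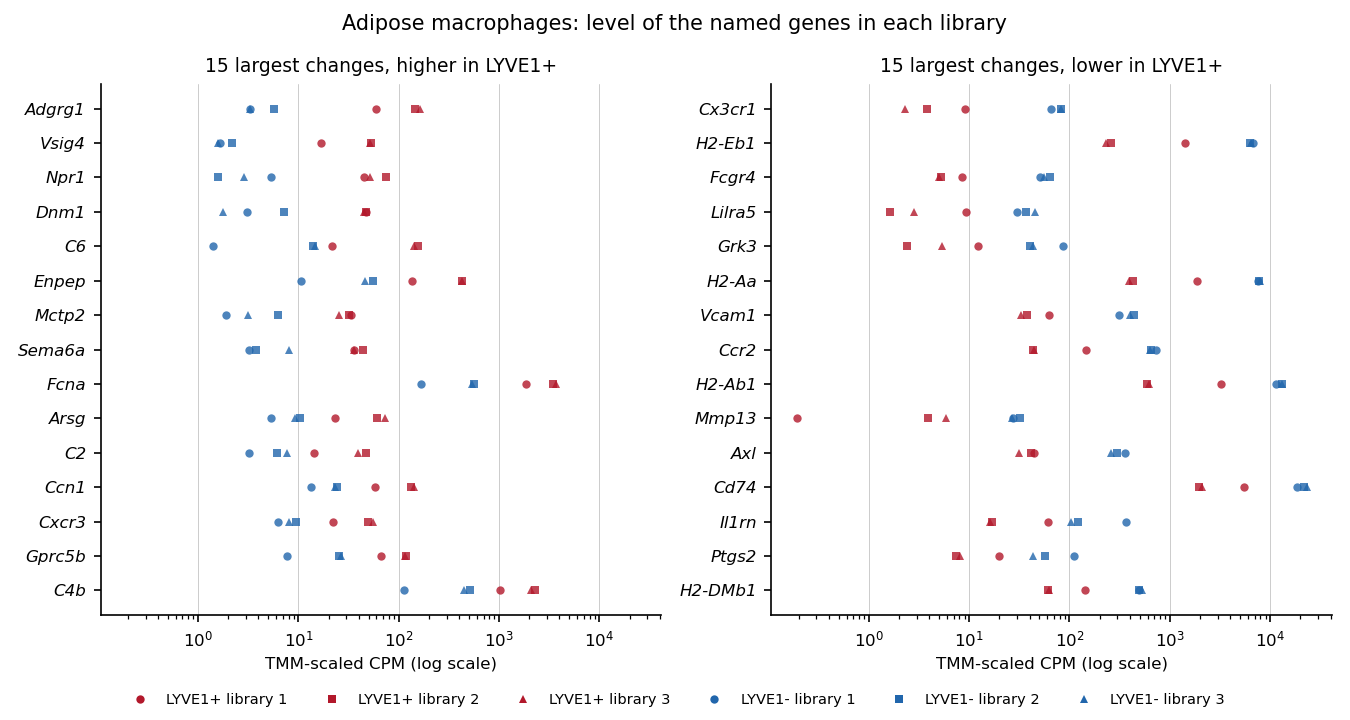
TMM-scaled CPM on a log scale of the 15 genes with the largest log2 fold change in each direction, among called genes with a mean of at least 16 CPM and no overlap. Red marks LYVE1+ libraries and blue LYVE1- libraries, with 1 symbol per library number; LYVE1+ library 1 (red circles) lies between the other LYVE1+ libraries and the LYVE1- libraries for most genes.

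The transcript of the sorted protein followed the sort. Lyve1 (ENSMUSG00000030787.3, GRCm38 chromosome 7, 110850607 to 110863239) had 1495, 2190 and 2092 CPM in LYVE1+ libraries 1, 2 and 3 and 230, 569 and 610 CPM in LYVE1- libraries 1, 2 and 3; library values are given in this order throughout. Every LYVE1+ library lay above every LYVE1- library, and the LYVE1- cells still held Lyve1 transcripts. The log2 fold change was 2.04 (SE 0.33, 4.1-fold, adjusted p = 0.00383). The other gate genes were not called in the edgeR fit of all libraries: Adgre1, which encodes F4/80, had a log2 fold change of -0.10, Itgam (CD11b) 0.06, Fcgr1 (CD64) -0.02, Mertk 0.42 and Ptprc (CD45) -0.47. Of the 6 gate genes, Lyve1 included, limma voom called 1 higher and 1 lower. The fit of the fat libraries alone with the replicate block called 2 higher and 1 lower. None of the 15 core macrophage genes, such as Csf1r (the receptor of the growth factor CSF1) and Lyz2 (lysozyme), passed the edgeR test without a block, where 3 had an unadjusted p below 0.05. With the replicate block 2 were called higher and 2 lower, without both libraries numbered 1 edgeR called 2 lower, and DESeq2 and limma voom called 2 lower each. Csf1r had 4242, 6020 and 5776 CPM in LYVE1+ and 2746, 5211 and 4552 CPM in LYVE1- libraries, so both sorts carried this lineage marker at levels that overlapped.

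Genes of resident perivascular macrophages were higher in LYVE1+ cells. Of 28 members tested, 16 rose (57.1%, against 1.82% of all genes) with a list median log2 fold change of 1.12, and 27 had a positive value. In a bulk library, fewer cells of a type and less RNA per cell cannot be told apart, here and below. Vsig4, a complement receptor that clears particles coated with C3 fragments, had 16.7, 52.6 and 52.3 CPM in LYVE1+ and 1.66, 2.16 and 1.59 CPM in LYVE1- libraries. The sorts were far apart, with library 1 the lowest of the LYVE1+ libraries, and the log2 fold change was 4.49 (SE 0.50, 22.5-fold, adjusted p = 0.00052). Timd4, a receptor for phosphatidylserine on dying cells, had 118, 233 and 268 CPM in LYVE1+ and 19.3, 52.8 and 66.1 CPM in LYVE1- libraries (log2 fold change 2.16, SE 0.37, adjusted p = 0.00586). Folr2, a folate receptor of resident macrophages, had 2236, 3561 and 3582 CPM against 535, 1453 and 1394 CPM (log2 fold change 1.47, adjusted p = 0.0273). For both genes library 1 was the lowest library of its sort, and the sorts did not overlap. Other members that rose were Ltc4s (leukotriene C4 synthase, log2 fold change 1.88), Fxyd2 (a modulator of the sodium pump, 1.26), Clec10a (a galactose-binding lectin, 1.20) and Fgfr1 (an FGF receptor, 0.94). Without LYVE1+ library 2 or 3 the calls of Folr2 (adjusted p = 0.112 and 0.114), Fxyd2 (0.0711 and 0.0587), Clec10a (0.0989 and 0.095) and Fgfr1 (0.216 and 0.176) ended, while those of Vsig4, Timd4 and Ltc4s held without each single fat library. Folr2 was also not called without LYVE1- library 3 (0.0548), Clec10a not without LYVE1- library 1 (0.05), and Fgfr1 not without any LYVE1- library (0.0632 to 0.135).

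Several markers that are widely used for resident macrophages did not pass the test in fat. Mrc1 (the mannose receptor CD206) had a log2 fold change of 0.40, F13a1 (coagulation factor XIII) 0.93, Cd163 (the hemoglobin scavenger receptor) 0.58, Selenop (a selenium transport protein) 0.94, Cbr2 (a carbonyl reductase) 0.85, Igf1 0.10 and Pf4 0.02. Mgl2, a lectin closely related to Clec10a, had -0.49. The number of resident genes called higher was 20 without both libraries numbered 1, 8 without either LYVE1+ library 2 or LYVE1+ library 3, and 5 in the fit of the fat libraries alone. A lower call of 1 member was made without both libraries numbered 1, without LYVE1- library 1 and with limma voom. It was also made in the fit of the fat libraries alone with the replicate block.

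Among the 28 complement genes tested 5 were higher in LYVE1+ cells (17.9%). They were Vsig4, Fcna, C2, C4b and C6, which act as receptor, lectin starter, protease, partner of that protease and part of the membrane attack complex. Vsig4 and Fcna also belong to the resident list. Fcna, a ficolin that binds sugars on microbes and starts the lectin pathway, had 1838, 3420 and 3691 CPM in LYVE1+ and 167, 562 and 542 CPM in LYVE1- libraries. C2 had 14.2, 47.3 and 39.4 CPM against 3.19, 6.17 and 7.75 CPM (log2 fold change 2.56, SE 0.45, adjusted p = 0.00682). The 3 libraries of each sort stayed apart for both genes, and library 1 was again the lowest of its sort. C6 had 21.7, 157 and 142 CPM against 1.41, 14 and 14.8 CPM (log2 fold change 3.39, SE 0.71, adjusted p = 0.0184). C4b had 1012, 2284 and 2080 CPM against 114, 512 and 446 CPM, and reads of its near copy C4a may be shared with it. The call of C6 ended without LYVE1+ library 2 (adjusted p = 0.0788), LYVE1+ library 3 (0.0736) or LYVE1- library 3 (0.0502), and that of C4b without LYVE1+ library 2 (0.0535). The C1q chains, made by most tissue macrophages, were not called (C1qa 0.55, C1qb 0.20 and C1qc 0.52 on the log2 scale).

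Receptors and enzymes of vasoactive peptides were among the largest differences: 3 of 19 were higher (15.8%), and the rest of that list had no call. Npr1, a guanylyl cyclase that is the receptor of atrial natriuretic peptide, had 45.6, 74.8 and 52.1 CPM in LYVE1+ and 5.37, 1.57 and 2.88 CPM in LYVE1- libraries (log2 fold change 4.17, SE 0.38, 18-fold, adjusted p = 0.000243). Enpep, an aminopeptidase that cleaves angiotensin II, had 136, 431 and 423 CPM against 10.6, 55.2 and 46.3 CPM (log2 fold change 3.14, SE 0.53, adjusted p = 0.00539). Ednrb, an endothelin receptor, had 1236, 2383 and 2495 CPM against 195, 668 and 632 CPM (log2 fold change 2.03, SE 0.38, adjusted p = 0.00988). All LYVE1+ libraries lay above all LYVE1- libraries for these genes, and for Enpep and Ednrb the libraries numbered 1 were the lowest of their sorts. The list's median was -0.42, since 11 members had negative values that were not called.

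Among called genes with a mean of at least 16 CPM and no overlap, the largest change in this direction was that of Adgrg1, which encodes the adhesion GPCR also known as GPR56. It had 59.8, 145 and 162 CPM in LYVE1+ and 3.32, 5.68 and 3.28 CPM in LYVE1- libraries (log2 fold change 4.89, SE 0.44, 29.7-fold, adjusted p = 0.000243). Adgre4, an adhesion receptor of the F4/80 family, went the other way, with 37.6, 21.5 and 9.97 CPM against 91, 133 and 160 CPM (log2 fold change -2.50, SE 0.39, adjusted p = 0.00305). These were the only calls among 15 adhesion receptors of this class in the fit of all libraries (6.67% in each direction, against 1.82% and 2.1% of all genes). Further genes far higher in LYVE1+ cells were Dnm1, a dynamin that cuts vesicles from the membrane (46.8, 47.3 and 45.5 CPM against 3.07, 7.15 and 1.79 CPM, 11.5-fold), and Sema6a, a semaphorin of cell guidance (35.8, 43.7 and 35.6 CPM against 3.19, 3.82 and 8.15 CPM, 7.53-fold). For both, LYVE1+ library 1 was level with the other LYVE1+ libraries. Mctp2, a membrane protein with calcium-binding C2 domains, was 7.88-fold higher, the sulfatase Arsg 6.17-fold, the matrix protein Ccn1 5.46-fold and the orphan receptor Gprc5b 5.07-fold.

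Lectins and scavenger receptors changed in both directions. Of 33 C-type lectins 6 rose (18.2%) and 4 fell (12.1%). The risers were Cd209a, Cd209b, Cd209d, Cd209f and Cd209g, relatives of the pathogen receptor DC-SIGN, and Clec10a. Cd209b had 520, 560 and 590 CPM in LYVE1+ and 72.8, 151 and 155 CPM in LYVE1- libraries (log2 fold change 2.14, SE 0.31, adjusted p = 0.00198). Cd209d had 339, 403 and 414 CPM against 51.4, 103 and 114 CPM (log2 fold change 2.11, SE 0.30, adjusted p = 0.00181). The groups were clearly apart for both, although reads of this family can be shared between near copies. Those that fell were Clec4b1, Clec7a (dectin-1, the receptor of fungal beta-glucan), Clec4a2 and Clec12a. Clec4b1 had 32.8, 32.5 and 31.6 CPM against 110, 120 and 132 CPM (log2 fold change -1.90, SE 0.15, adjusted p = 9.63e-05). Clec7a had 51.9, 63.8 and 64.9 CPM against 169, 187 and 175 CPM (log2 fold change -1.55, SE 0.26, adjusted p = 0.00484). For Clec4b1 and Clec7a the libraries numbered 1 did not stand out from the others of their sort. The calls of Cd209f and Cd209g ended without LYVE1+ library 2 or 3 (adjusted p = 0.0985 and 0.119, and 0.0744 and 0.085), as did that of Clec10a, given above. That of Cd209a ended without library 2 or 3 of either sort (0.107 to 0.171) and that of Clec12a without each fat library except LYVE1- library 1 (0.0752 to 0.15).

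Of 19 scavenger receptors 2 rose (10.5%) and 3 fell (15.8%), against 1.82% and 2.1% of all genes. Colec12, a collectin on the cell surface, had 194, 471 and 410 CPM in LYVE1+ and 35.9, 87.5 and 96 CPM in LYVE1- libraries (log2 fold change 2.29, SE 0.36, adjusted p = 0.00314). Stab1, a receptor that carries altered proteins and hyaluronan fragments to the lysosome, had 1667, 1725 and 1564 CPM against 851, 1153 and 1051 CPM (log2 fold change 0.70, adjusted p = 0.0233). Both were higher in every LYVE1+ library. Scarb1 (the HDL receptor), Lrp1 (a large receptor for lipoproteins and proteases) and Cxcl16, a chemokine whose membrane form binds oxidized lipoprotein, were lower. Cxcl16 had 85.3, 78.8 and 83.7 CPM against 256, 184 and 182 CPM (log2 fold change -1.33, SE 0.16, adjusted p = 0.000649). Without single libraries the call of Stab1 ended in 4 fits, without LYVE1+ library 2 or 3 (adjusted p = 0.114 and 0.0802) and LYVE1- library 1 or 3 (0.0593 and 0.0776). The call of Scarb1 ended without library 2 or 3 of either sort (adjusted p = 0.083 to 0.134) and that of Lrp1 without each fat library except LYVE1+ library 1 (0.0643 to 0.202).

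Genes for the uptake of dying cells were split as well, with 3 of 24 higher (12.5%) and 5 lower (20.8%), against 1.82% and 2.1% of all genes. Axl, a receptor tyrosine kinase that binds GAS6 on dying cells, fell: it had 44.5, 41.4 and 31.2 CPM in LYVE1+ and 360, 297 and 259 CPM in LYVE1- libraries (log2 fold change -2.97, SE 0.32, adjusted p = 0.00047). Pros1, a ligand of receptors of the same family, rose (316, 669 and 723 CPM against 170, 285 and 285 CPM, log2 fold change 1.21, adjusted p = 0.0343). The receptor Mertk, related to Axl and part of the gate, had 170, 203 and 183 CPM against 112, 162 and 143 CPM. Mertk did not pass (adjusted p = 0.399). Itgb5, the integrin chain of a receptor for the bridging protein MFGE8, had 4.98, 4.5 and 9.56 CPM against 36.2, 34.9 and 15.7 CPM (log2 fold change -2.17, SE 0.36, adjusted p = 0.00522). The CD300 family receptors Cd300lb and Cd300ld were lower by less (-1.04 and -0.81 on the log2 scale). The call of Cd300lb ended without LYVE1+ library 2 (adjusted p = 0.0583) and that of Cd300ld without LYVE1+ library 2 or LYVE1- library 2 or 3 (0.0783 to 0.089). Pros1 was not called without each fat library except LYVE1+ library 1 (0.0681 to 0.176).

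MHC class II genes were the list with the lowest median. Of 11 tested, 7 fell in LYVE1+ cells (63.6%, against 2.1% of all genes), and the list median was -2.45. They were the classical chains H2-Eb1, H2-Aa and H2-Ab1, the invariant chain Cd74, the peptide loaders H2-DMa and H2-DMb1, and Ciita, the master regulator of class II transcription. H2-Eb1 (ENSMUSG00000060586.10, chromosome 17, 34305867 to 34316674) had 1404, 261 and 229 CPM in LYVE1+ and 6775, 6357 and 6458 CPM in LYVE1- libraries (log2 fold change -3.37, SE 0.58, 10.4-fold, adjusted p = 0.00586). Cd74 had 5516, 1941 and 2105 CPM against 18453, 21974 and 23032 CPM (log2 fold change -2.73, SE 0.36, adjusted p = 0.00115). Ciita had 95.6, 10.6 and 17.3 CPM against 228, 212 and 217 CPM (log2 fold change -2.45, adjusted p = 0.032). The LYVE1- libraries were close to each other, while LYVE1+ library 1 lay above LYVE1+ libraries 2 and 3 in every called class II gene. That library also held 1604 CPM of B and plasma cell markers against 943 and 1019 CPM in LYVE1+ libraries 2 and 3, and 831 CPM of dendritic cell markers against 571 and 538 CPM. Ccr7, a dendritic cell and lymphocyte chemokine receptor, had 213, 4.33 and 9.16 CPM in LYVE1+ and 232, 29.3 and 31.2 CPM in LYVE1- libraries. The part of such cells in the class II values was not tested. H2-Oa, H2-Ob, H2-Eb2 and H2-DMb2 did not pass (0.53, 0.56, -0.17 and -0.81 on the log2 scale). Without both libraries numbered 1, 8 members were called lower and the median was -3.36; in the fit of the fat libraries alone 3 were called. Ciita was not called without each fat library except LYVE1+ library 1 (adjusted p = 0.0625 to 0.129), and the other 6 called members held in those fits.

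The promoters of the class II chains are shown because the chains moved together. The Y box, the letters CTGATTGG on either strand, is a known element of class II promoters that contains the reverse complement of CCAAT. It was found in the 300 base promoter of 4 of the 8 tested members with an entry, H2-Aa, H2-Eb1, H2-Eb2 and H2-Oa, and in 4.7% of 27025 genes with such a promoter. Of the genes that hold it, H2-Aa and H2-Eb1 fell and H2-Eb2 and H2-Oa were not called. The 200 bases before the start of both genes follow, from RefSeq on GRCm38.p6, 5′ to 3′ on the gene's strand with the Y box in capitals (H2-Aa chr17:34287824-34288023, minus strand; H2-Eb1 chr17:34305667-34305866, plus strand).
H2-Aa: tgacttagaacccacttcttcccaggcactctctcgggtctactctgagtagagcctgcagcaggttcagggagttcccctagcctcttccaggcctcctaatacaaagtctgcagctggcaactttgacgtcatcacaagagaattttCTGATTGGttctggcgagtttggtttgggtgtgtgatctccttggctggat
H2-Eb1: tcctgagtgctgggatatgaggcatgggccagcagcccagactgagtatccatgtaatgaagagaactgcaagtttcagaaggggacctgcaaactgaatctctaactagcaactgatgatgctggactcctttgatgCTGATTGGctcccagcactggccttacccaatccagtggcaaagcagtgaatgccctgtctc

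**Figure D3:**
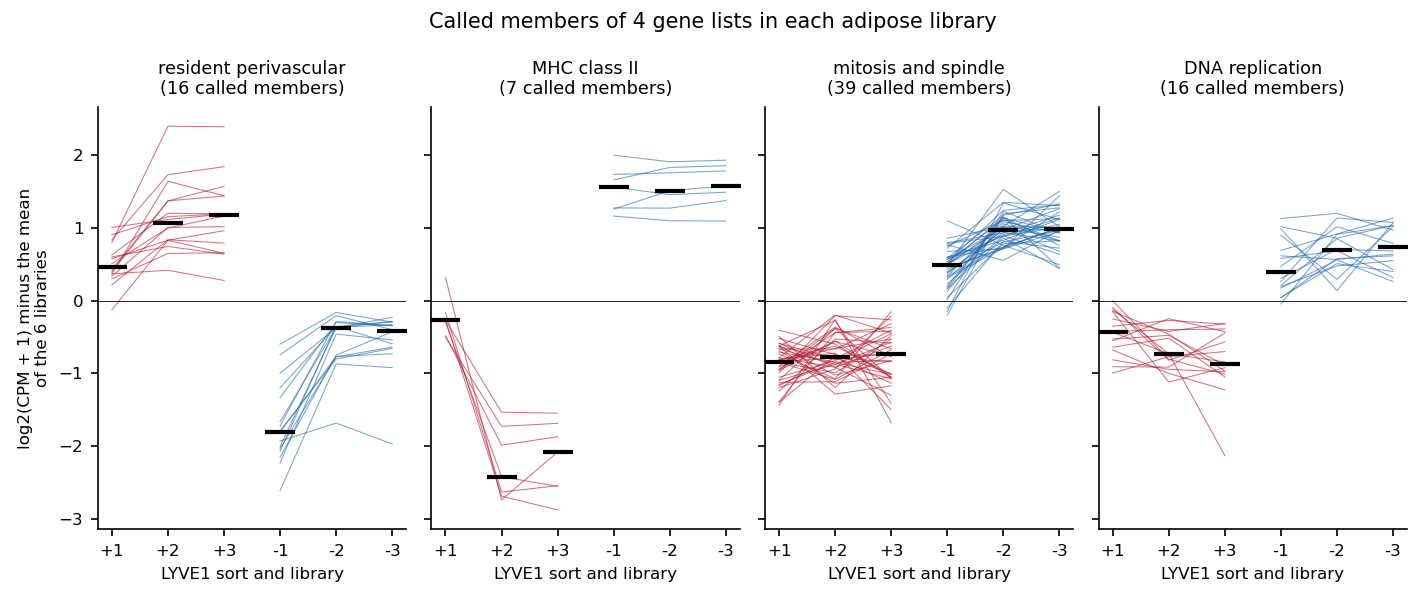
Called members of 4 gene lists in the 6 fat libraries, as log2(CPM + 1) minus the mean of the gene over these libraries; each thin line joins the libraries of 1 gene and 1 sort, and black bars are medians. Red is LYVE1+ and blue is LYVE1-. Library 1 lies nearer the other sort for the class II genes of LYVE1+, and lower for the resident genes of LYVE1-.

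Ligands that costimulate or restrain T cells were lower in LYVE1+ cells in 7 of 26 cases (26.9%), and 1, Vsig4, was higher. Slamf9, a receptor of the SLAM family, had 75.1, 71.2 and 70.4 CPM in LYVE1+ and 165, 184 and 198 CPM in LYVE1- libraries (log2 fold change -1.34, SE 0.14, adjusted p = 0.00047). Icosl, the ligand of the T cell receptor ICOS, had 31.1, 28.3 and 30.5 CPM against 71.4, 67 and 67.2 CPM (log2 fold change -1.20, SE 0.14, adjusted p = 0.00065). Cd83, which holds class II molecules at the surface, had 785, 935 and 1073 CPM against 1820, 2549 and 2653 CPM (log2 fold change -1.33, SE 0.18, adjusted p = 0.00129). In each of these genes the libraries of a sort agreed closely and did not overlap with the other sort. Slamf7, Slamf8, Cd276 and Tnfsf9 (4-1BB ligand) fell too, by 2.13, 2.48, 2.49 and 1.54 on the log2 scale; the call of Tnfsf9 ended without LYVE1+ library 2 or 3 (adjusted p = 0.0814 and 0.0802). The classical costimulators Cd80 and Cd86 and the checkpoint ligand Cd274 had -0.27, 0.01 and -1.17 on the log2 scale and were not called. Class I presentation showed 2 calls among 18 genes, Tap1 (a peptide transporter, -0.80) and H2-Q7 (a non-classical chain, -1.49). Both were lower (11.1%, against 2.1% of all genes). The call of Tap1 ended without LYVE1+ library 2 or 3 (adjusted p = 0.0626 and 0.0616), and that of H2-Q7 without any fat library except LYVE1+ library 1 (0.0525 to 0.206).

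Monocyte genes were lower where they were called in the fit of all libraries. Of 25 tested 5 fell (20%, against 2.1% of all genes), with a median of -0.86. The sorts did not overlap for 9 of the 25 members with LYVE1+ lower and for 3 with LYVE1+ higher, against 9.83% and 9.12% of all genes. The number higher was near the share of all genes. Cx3cr1, the receptor of fractalkine, had 9.01, 3.81 and 2.32 CPM in LYVE1+ and 64.8, 82.7 and 82.7 CPM in LYVE1- libraries (log2 fold change -4.04, SE 0.56, 16.4-fold, adjusted p = 0.00158). Ccr2, the receptor that lets monocytes leave the marrow, had 147, 43.4 and 44.1 CPM against 724, 648 and 636 CPM (log2 fold change -3.11, SE 0.46, 8.63-fold, adjusted p = 0.00237). LYVE1+ library 1 was the highest of its sort for both genes and still far below the LYVE1- libraries. Ms4a4c, S100a4 and the sialomucin Spn were lower by 1.81, 1.20 and 1.61 on the log2 scale. The call of S100a4 ended in 4 fits that left out LYVE1+ library 2 or 3, or else LYVE1- library 1 or 3 (adjusted p = 0.0693 to 0.153), and that of Spn in every fit without a fat library except LYVE1+ library 1 (0.0772 to 0.154). Ms4a4c also lost its call in each of the fits that Spn did (0.0512 to 0.172). Genes of blood monocytes such as Ly6c2 (-0.86), Plac8 (1.13) and Vcan (-1.49) did not pass. The list's calls numbered 10 without both libraries numbered 1, 12 without LYVE1+ library 1 and 8 with the replicate block. They numbered 2 without LYVE1+ library 2 or 3, or else LYVE1- library 1 or 3, 3 without LYVE1- library 2, and 2 in the fit of the fat libraries alone. All of these were lower. Limma voom called 11 lower and 1 higher, and the fit of the fat libraries alone with the replicate block called 12 lower and 1 higher.

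Of 18 chemokine receptors 3 fell (16.7%) and 1 rose (5.56%), against 2.1% and 1.82% of all genes. The only 1 that rose was Cxcr3, known mainly from T cells. It had 22, 49.1 and 55.3 CPM in LYVE1+ and 6.26, 9.51 and 8.15 CPM in LYVE1- libraries (log2 fold change 2.40, SE 0.34, adjusted p = 0.00188). The summed markers of T and NK cells did not follow this order, with 394, 38.9 and 32.8 CPM in LYVE1+ and 225, 46.7 and 52.1 CPM in LYVE1- libraries, and Cd3e had 17.6, 0.519 and 0 CPM against 7.28, 0 and 0.298 CPM; the part of T cells in the Cxcr3 value was not tested. Ccrl2, an atypical receptor that presents chemerin, fell (208, 179 and 179 CPM against 571, 480 and 514 CPM, log2 fold change -1.47, SE 0.20, adjusted p = 0.00129). The chemokines themselves had 4 calls among 28 genes. Of 16 CC chemokines 1 rose (6.25%) and 2 fell (12.5%), against 1.82% and 2.1% of all genes. Of the other 12 chemokines 0 rose and 1 fell (8.33%). Ccl22, which attracts regulatory T cells, had 0.958, 0 and 0 CPM against 28.4, 11.6 and 13.7 CPM (log2 fold change -6.35, adjusted p = 0.00635), so that 2 of the LYVE1+ libraries held none of its counts. Ccl4 fell by 1.80 on the log2 scale, Cxcl16 fell as given above, and Ccl24, an eotaxin, rose (348, 444 and 447 CPM against 141, 218 and 241 CPM, log2 fold change 1.05, adjusted p = 0.0152). The call of Ccl24 ended without LYVE1+ library 2 or 3 (adjusted p = 0.0771 and 0.0782), and that of Ccl4 without each fat library except LYVE1+ library 1 (0.0677 to 0.139).

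Inflammatory mediators had 3 calls among 27 genes (11.1%, against 2.1% of all genes), all lower in LYVE1+ cells. Il12b, a subunit of the cytokine IL-12, had no counts in the LYVE1+ libraries and 3.58, 1.37 and 1.39 CPM in the LYVE1- libraries. It was at least 17.7-fold lower, taking 3 counts over the LYVE1+ group as the floor (adjusted p = 0.0085). Ptgs2 (cyclooxygenase-2) had 19.7, 7.36 and 8.15 CPM against 112, 57.6 and 42.8 CPM (log2 fold change -2.65, SE 0.51, adjusted p = 0.0107), and Il1rn, the interleukin-1 receptor antagonist, had 60.8, 16.8 and 16.1 CPM against 364, 122 and 104 CPM (log2 fold change -2.69, SE 0.60, adjusted p = 0.0256). Library 1 was the highest of its sort for both. Their calls ended without LYVE1+ library 2 or 3 (adjusted p = 0.0673 and 0.0688 for Ptgs2, 0.119 and 0.121 for Il1rn), and that of Il1rn also without LYVE1- library 1 (0.0876). Tnf (-1.74) and Il1b (-2.09) had large negative values that did not pass (adjusted p = 0.0816 and 0.345). Of the innate sensors Tlr1, a partner of TLR2 for bacterial lipopeptides, fell (23.4, 19 and 20.8 CPM against 48.9, 51.3 and 51.5 CPM, log2 fold change -1.27, adjusted p = 0.0024). Lbp, the lipopolysaccharide-binding protein, rose by 3.60 on the log2 scale (7.28, 17.7 and 23.7 CPM against 1.02, 2.35 and 0.597 CPM, adjusted p = 0.0102), a call that was lost without LYVE1+ library 3 (0.051) or LYVE1- library 3 (0.0511). Oas2 (log2 fold change 0.62) was the single call among 42 interferon stimulated genes (2.38%, near the 1.82% of all genes called higher). It ended without library 2 or 3 of either sort (adjusted p = 0.075 to 0.0983).

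Fc receptors gave 2 calls among 12 genes, both lower (16.7%, against 2.1% of all genes). Fcgr4, an activating receptor for IgG, had 8.43, 5.28 and 5.03 CPM in LYVE1+ and 51, 64 and 55.1 CPM in LYVE1- libraries, a wide separation (log2 fold change -3.21, SE 0.30, 9.28-fold, adjusted p = 0.000243). Fcrls had 581, 682 and 652 CPM against 999, 1190 and 1167 CPM (log2 fold change -0.81, SE 0.14, adjusted p = 0.00554). Among 8 Siglecs, receptors for sialic acid, Siglech rose and Siglece fell (12.5% each, against 1.82% and 2.1% of all genes). Siglech had 65.9, 69.6 and 62.2 CPM against 13.7, 24 and 23.2 CPM (log2 fold change 1.69, SE 0.21, adjusted p = 0.00079). It is also a marker of plasmacytoid dendritic cells and microglia. The 15 dendritic cell markers, Siglech among them, summed to 831, 571 and 538 CPM in LYVE1+ and 853, 461 and 420 CPM in LYVE1- libraries, and 7 of them had a positive value. Flt3 had 7.67, 0.606 and 0 CPM against 16.6, 2.94 and 4.57 CPM and Ccr9 had 8.63, 0.692 and 1.31 CPM against 5.49, 0.196 and 0.0994 CPM, neither of them called, and Cd209a was called higher; the part of such cells in the Siglech value was not tested. The call of Siglece (log2 fold change -0.93) ended without library 2 or 3 of either sort (adjusted p = 0.0814 to 0.153). Lilra5, an activating receptor of the leukocyte immunoglobulin-like family, was 9.05-fold lower and Grk3, a kinase that switches off G-protein-coupled receptors, was 8.91-fold lower.

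Genes of lipid-associated macrophages, the type described around dying adipocytes in obese fat, were lower in 7 of 24 cases (29.2%) and higher in 1, Ctsl. Lgals3 (galectin-3) had 274, 297 and 294 CPM in LYVE1+ and 806, 545 and 558 CPM in LYVE1- libraries (log2 fold change -1.14, SE 0.16, adjusted p = 0.00182). Lpl (lipoprotein lipase) had 232, 246 and 242 CPM against 889, 582 and 555 CPM (log2 fold change -1.49, SE 0.31, adjusted p = 0.0183). Spp1 (osteopontin) had 2.3, 1.38 and 0.403 CPM against 25.8, 9.31 and 5.47 CPM (log2 fold change -3.38, SE 0.73, adjusted p = 0.0217). LYVE1- library 1 was the highest library for each of these genes, while the LYVE1+ libraries were alike for Lgals3 and Lpl. Gpnmb, Atp6v0d2, Capg and Fabp5 were lower by 2.28, 1.29, 0.65 and 2.04. Trem2 (0.54), Cd9 (-1.65), Apoe (0.75) and Itgax (CD11c, -2.55), further genes of this type, were not called. Adipocyte markers summed to 278, 102 and 111 CPM in LYVE1+ and 290, 149 and 149 CPM in LYVE1- libraries, also highest in the libraries numbered 1; their part in these differences was not tested. The list's lower calls numbered 1 in each of the fits without LYVE1+ library 2, LYVE1+ library 3 or LYVE1- library 1, 2 in the fit of the fat libraries alone, and 6 without both libraries numbered 1. Lgals3 kept its call in every fit that left out 1 fat library. Lpl lost it without LYVE1+ library 2, LYVE1+ library 3 or LYVE1- library 1 (adjusted p = 0.0763, 0.0797 and 0.0588), as did Spp1 (0.0946, 0.099 and 0.0746) and Gpnmb (0.0945, 0.126 and 0.0923), and Atp6v0d2 lost it without each fat library except LYVE1- library 2 (0.0595 to 0.197). Fabp5 and Capg, close to the threshold in the fit of all libraries (adjusted p = 0.0497 and 0.0482), were not called in 4 and 5 of the 6 fits, with adjusted p of 0.0546 to 0.214.

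Genes of lipid uptake, storage and sterol handling gave few calls. Of 45 tested 2 were higher (4.44%) and 3 lower (6.67%), against 1.82% and 2.1% of all genes. Pparg, the nuclear receptor of lipid storage, had 7.09, 5.63 and 6.24 CPM in LYVE1+ and 33.6, 18.5 and 19.7 CPM in LYVE1- libraries (log2 fold change -1.92, SE 0.40, adjusted p = 0.0169). Pltp, which transfers phospholipid between lipoproteins, had 2112, 2527 and 2197 CPM against 1343, 1499 and 1211 CPM (log2 fold change 0.75, adjusted p = 0.0231), and Mylip, which marks the LDL receptor for degradation, rose by 0.97. Pparg was thus lower and Pltp higher in every LYVE1+ library. The call of Pparg ended without LYVE1+ library 2 or 3, or else LYVE1- library 1 (adjusted p = 0.0862, 0.0782 and 0.0633), that of Pltp without LYVE1+ library 2 or 3, or else LYVE1- library 1 or 3 (0.0504 to 0.125), and that of Mylip without library 3 of either sort (0.0833 and 0.0588). Among 51 lysosomal genes 1 was higher, Ctsl (cathepsin L, 1.18), and 1 lower, Atp6v0d2 (1.96% each, near the 1.82% and 2.1% of all genes). A positive value was found for 38 of them, and the number of calls depended on the fit. With the replicate block 10 were higher and 0 lower, against 3.14% and 3.3% of all genes. Without both libraries numbered 1 it was 9 and 0, against 2.75% and 3.26%. In the fit of the fat libraries alone it was 0 and 0. The call of Ctsl ended without each fat library except LYVE1+ library 1 (adjusted p = 0.0663 to 0.169). Of 29 iron and heme genes 2 were higher (6.9%), Steap4 (a metal reductase, 0.82) and Blvrb (biliverdin reductase B, 0.79), and 1 was lower (3.45%), Lrp1, which also takes up heme bound to hemopexin. The call of Steap4 ended without library 3 of either sort (adjusted p = 0.0782 and 0.0548) and that of Blvrb without LYVE1+ library 2 or 3, or else LYVE1- library 1 or 3 (0.103 to 0.175). Fatty acid oxidation had 1 call of 29 (Acsl3, -1.59) and glycolysis 1 of 28 (Pfkfb3, 0.78), shares near those of all genes. Acsl3 was not called without LYVE1+ library 2 or 3 (adjusted p = 0.0553 and 0.0521), and Pfkfb3 not without any fat library except LYVE1+ library 1 (0.0534 to 0.143).

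Adhesion molecules fell in 6 of 36 cases (16.7%). Vcam1, which binds the integrin of leukocytes and erythroblasts, had 62.7, 37.6 and 32.9 CPM in LYVE1+ and 313, 436 and 399 CPM in LYVE1- libraries (log2 fold change -3.12, SE 0.24, 8.68-fold, adjusted p = 9.63e-05). Cd44, the main hyaluronan receptor of leukocytes, had 203, 102 and 109 CPM against 748, 376 and 381 CPM (log2 fold change -1.86, SE 0.35, adjusted p = 0.00905), the reverse of Lyve1. Icam1 had 426, 258 and 264 CPM against 925, 590 and 572 CPM (log2 fold change -1.14, adjusted p = 0.0152). For Cd44 and Icam1 library 1 was the highest of each sort, and their calls ended without LYVE1+ library 2 or 3 (adjusted p = 0.0561 and 0.0541 for Cd44, 0.0826 and 0.0833 for Icam1). Itga1, a collagen-binding integrin chain, had no counts in LYVE1+ libraries and 3.71, 2.25 and 0.895 CPM in LYVE1- libraries, at least 19.3-fold lower with a floor of 3 counts over the LYVE1+ group. Its call ended without LYVE1+ library 2 or 3 (adjusted p = 0.0758 and 0.0712). Of the other hyaluronan genes the hyaluronidases Hyal1 and Hyal2 rose by 1.01 and 1.38, and Hmmr, a hyaluronan-binding protein that acts on the mitotic spindle, fell with the division genes below. The call of Hyal1 ended without LYVE1+ library 2 (adjusted p = 0.0553) and that of Hyal2 without LYVE1+ library 2 or 3, or else LYVE1- library 1 or 3 (0.0955 to 0.155).

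Growth factors and matrix enzymes gave small groups of calls, 4 of 37 and 3 of 36. Of the growth factors 3 were higher (8.11%) and 1 lower (2.7%). Of the matrix list 2 were higher (5.56%) and 1 lower (2.78%). Both lower shares were near the 2.1% of all genes, and 1.82% of all genes were higher. Bmp2, a bone morphogenetic protein, had 44.3, 47.3 and 47.8 CPM in LYVE1+ and 15, 21.4 and 17.6 CPM in LYVE1- libraries (log2 fold change 1.37, SE 0.22, adjusted p = 0.00371). Ang (angiogenin) had 69.6, 73.6 and 61.5 CPM against 21.7, 33.4 and 32.4 CPM (log2 fold change 1.22, SE 0.19, adjusted p = 0.00308), and shares exons with Rnase4. Both had tight values in LYVE1+ libraries. Pdgfc rose and Pdgfb fell (1.28 and -2.15), so 2 ligands of PDGF receptors moved in opposite directions. Mmp13 (collagenase-3) had 0.192, 3.89 and 5.94 CPM against 27.6, 32 and 26.7 CPM (log2 fold change -2.99, SE 0.60, adjusted p = 0.0137), while Timp2, an inhibitor of metalloproteinases, and Adam15 rose by 1.08 and 0.70. Mmp13 lost its call without LYVE1+ library 2 (adjusted p = 0.0693), Pdgfb without LYVE1+ library 2 or 3, or else LYVE1- library 1 (0.0642 to 0.11), and Pdgfc, Timp2 and Adam15 without LYVE1+ library 2 or 3, or else LYVE1- library 1 or 3 (0.121 to 0.226, 0.0546 to 0.103 and 0.0552 to 0.102).

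Transcription factors of macrophages had 6 calls among 54, 3 in each direction (5.56% each, against 1.82% higher and 2.1% lower of all genes). Ahr, the receptor of aryl hydrocarbons and indoles, had 27.4, 29.2 and 27.9 CPM in LYVE1+ and 91.4, 75.6 and 69.9 CPM in LYVE1- libraries (log2 fold change -1.49, SE 0.15, adjusted p = 0.000316). Bhlhe41, a repressor of the clock family, had 10.5, 6.66 and 10.2 CPM against 3.96, 3.14 and 2.88 CPM (log2 fold change 1.45, SE 0.26, adjusted p = 0.00772). The libraries of each sort were close for Ahr and more spread for Bhlhe41. Tfec, a relative of MITF, and Tcf4 rose by 0.81 and 0.60, while Id2, an inhibitor of basic helix-loop-helix factors, and Pparg fell. Tfec was not called without LYVE1+ library 2 or 3, or else LYVE1- library 1 or 2 (adjusted p = 0.056 to 0.0711), nor without both libraries numbered 1 (0.0623). Id2 was not called without LYVE1+ library 2 or 3, or else LYVE1- library 1 (0.0583 to 0.093), and Tcf4 not without each fat library except LYVE1+ library 1 (0.0577 to 0.247). Factors tied to resident macrophages such as Maf (0.36) and Spic (-0.65), and Irf4 (-0.14), tied to antigen-presenting cells, were not called. Cebpd, a factor of acute inflammation on the list of immediate early and dissociation stress genes, rose (162, 229 and 201 CPM against 80.1, 87.5 and 80.1 CPM, log2 fold change 1.26, SE 0.17, adjusted p = 0.00158), and the other calls among the 40 genes of that list were Egr2 (-0.66) and Hspa1b (-1.09). Both of the latter ended without LYVE1+ library 2 or 3, or else LYVE1- library 2 (Egr2 adjusted p = 0.0968 to 0.123, also 0.114 without LYVE1- library 3; Hspa1b 0.0553 to 0.168). Fos, Jun and Egr1, the genes most often raised by tissue digestion, had -0.15, 0.02 and -0.05 on the log2 scale and were not called. Of the 40 stress genes 2.5% were called higher and 5% lower, against 1.82% and 2.1% of all genes.

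Genes of cell division were lower in LYVE1+ cells. Of 59 genes of mitosis and the spindle 39 fell (66.1%, against 2.1% of all genes), with a median log2 fold change of -1.69, and 57 had a negative value. Of 45 genes of DNA replication 16 fell (35.6%), the median was -1.02, and all 45 values were negative. Mki67, which coats mitotic chromosomes and marks cycling cells, had 29.9, 23.6 and 17.8 CPM in LYVE1+ and 79, 84.7 and 101 CPM in LYVE1- libraries (log2 fold change -1.90, SE 0.21, adjusted p = 0.00047). Cdc20, an activator of the ligase that starts anaphase, had 5.75, 5.8 and 7.85 CPM against 23.8, 30.6 and 31.2 CPM (log2 fold change -2.13, SE 0.23, adjusted p = 0.00047). Top2a, the topoisomerase that untangles sister chromosomes, had 27.4, 31.3 and 23.6 CPM against 69.4, 92.5 and 102 CPM (log2 fold change -1.68, SE 0.19, adjusted p = 0.00052). In all of them the sorts were apart and LYVE1+ library 1 was level with the other LYVE1+ libraries, unlike in the class II genes. Racgap1, needed for the cleavage furrow, was 3.32-fold lower.

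The replication genes with the smallest adjusted p were Rrm2, Tk1, Mcm5 and Mcm3. Rrm2, a subunit of the enzyme that makes deoxynucleotides, had 11.5, 9 and 7.55 CPM in LYVE1+ and 39.5, 35.3 and 40 CPM in LYVE1- libraries (log2 fold change -2.04, SE 0.22, adjusted p = 0.00047). Tk1, thymidine kinase, had 7.67, 6.92 and 6.74 CPM against 23.6, 27.8 and 32.5 CPM (log2 fold change -1.98, SE 0.21, adjusted p = 0.00047). The helicase subunits Mcm5 and Mcm3 were 2.92-fold and 1.77-fold lower. None of the 17 cell cycle inhibitors tested was called by edgeR without a block, where 4 had an unadjusted p below 0.05, all lower. The calls, all lower, numbered 1 with the replicate block, 2 without LYVE1+ library 1, 3 without both libraries numbered 1, 1 with DESeq2 and 4 with limma voom; Cdkn1a (p21) had a log2 fold change of -0.07 and Btg2 -0.50. Mitosis calls numbered 42 without both libraries numbered 1, 24 without LYVE1+ library 2, 24 without LYVE1- library 3 and 23 in the fit of the fat libraries alone. Replication calls numbered 22, 6, 10 and 5 in the same fits, and 9 and 10 without LYVE1+ library 3 and LYVE1- library 2. The cells of each library that were in cycle were not counted, so these values are levels in pooled RNA.

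Promoters of division genes carry known elements: TTTGAA is the core of the CHR, at which mitotic genes are held silent outside division, and CCAAT binds the factor NF-Y. Of the 39 mitosis genes that fell, 29 had a promoter entry in RefSeq, matched by symbol. TTTGAA on either strand stood in 22 of these 29 within the 300 bases and in 20.2% of all 27025 genes, and CCAAT in 22 of 29 and in 41.1%. Over all tested mitosis genes with an entry, called or not, each stood in 32 of 45 (71.1%), so the letters were not particular to the genes that fell. The next 2 lists were searched over all tested members, called or not. For the replication list the E2F-type letters TTCCCGCC and TTTCCCGC, which can overlap each other, each stood in 7 of 37 members with an entry, against 2.52% and 1.24% of all genes. For the resident list TGCTGAC, a site for MAF factors, stood in 4 of 23 members with an entry, Cbr2, Fcna, Retnla and Timd4, against 5.28%. These matches are a description of letters and were not tested. The 200 bases before the start of Mki67 and Cdc20 are given because both genes are among the mitosis calls with the smallest adjusted p (GRCm38.p6, 5′ to 3′ on the gene's strand, TTTGAA and CCAAT of either strand in capitals; Mki67 chr7:135716380-135716579 and Cdc20 chr4:118437344-118437543, both minus strand).
Mki67: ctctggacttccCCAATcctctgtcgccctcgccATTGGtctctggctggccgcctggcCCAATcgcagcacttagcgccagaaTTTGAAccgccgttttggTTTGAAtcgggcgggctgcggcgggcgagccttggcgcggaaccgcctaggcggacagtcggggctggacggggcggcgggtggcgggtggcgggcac
Cdc20: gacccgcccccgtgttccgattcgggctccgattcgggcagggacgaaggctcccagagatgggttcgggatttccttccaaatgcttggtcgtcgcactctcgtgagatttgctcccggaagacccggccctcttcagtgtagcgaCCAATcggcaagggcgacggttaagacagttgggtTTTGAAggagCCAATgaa

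**Figure D4:**
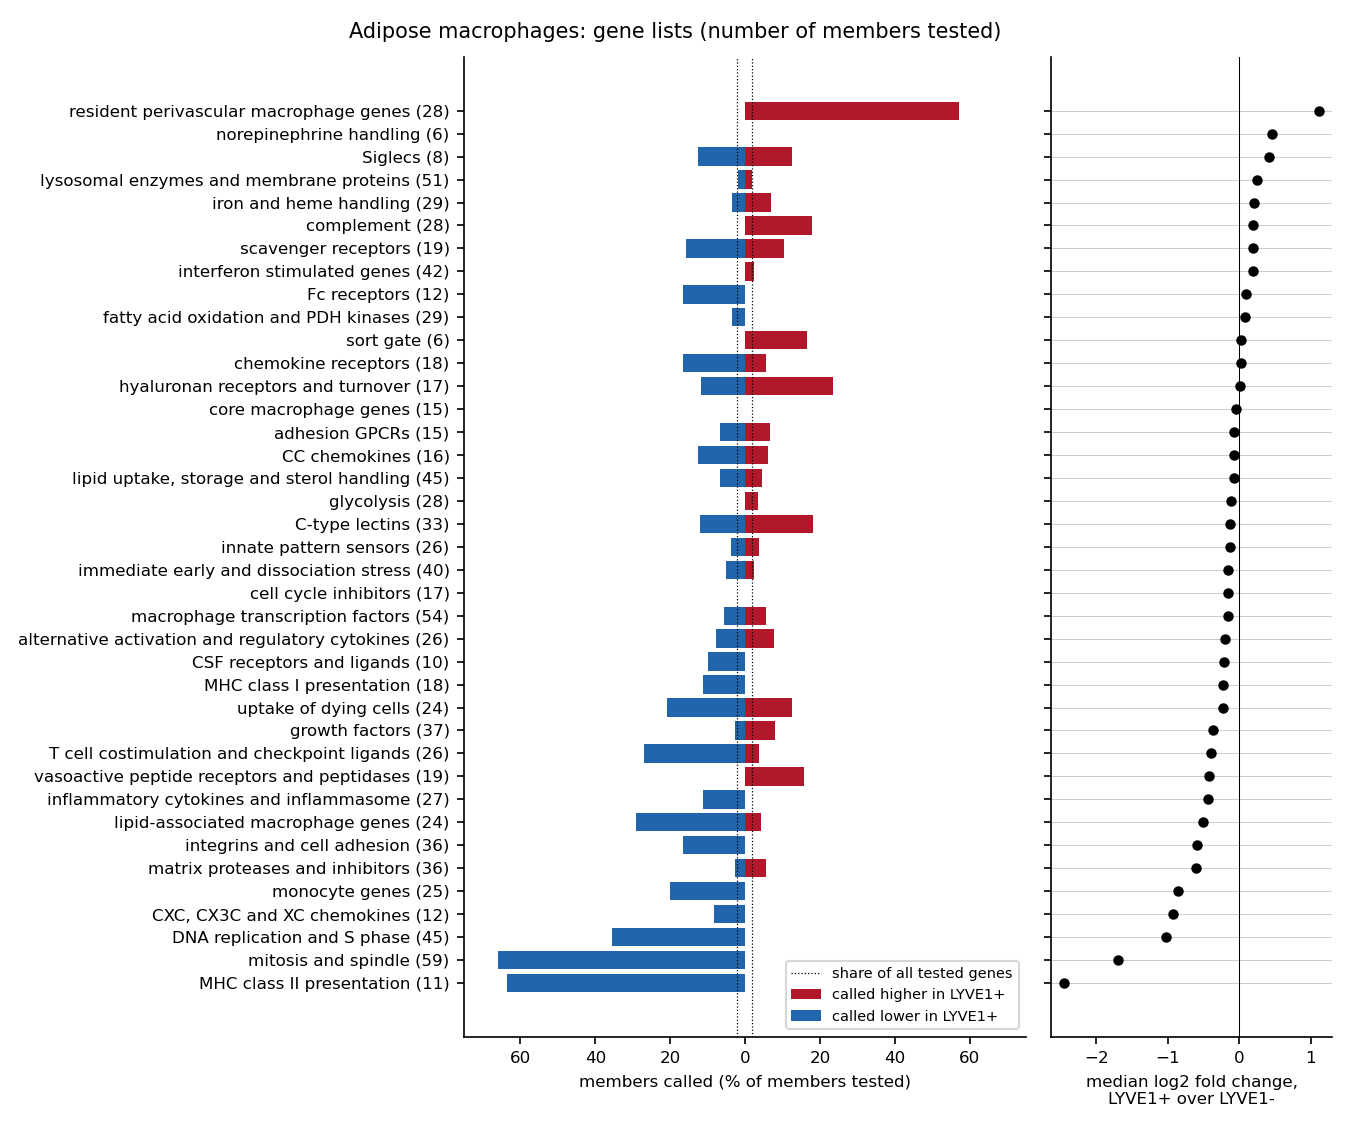
Left, members of each gene list called higher (red, right) or lower (blue, left) in LYVE1+ fat macrophages, as a percentage of the members tested (in brackets), with dotted lines at the shares of all genes, 1.82% and 2.1%. Right, the median log2 fold change of each list; class II, mitosis and replication lists lie lowest (-2.45, -1.69 and -1.02) and resident genes highest (1.12).

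Norepinephrine handling, which nerve-associated macrophages of fat are known for, gave few measurable genes. Of 14 genes listed only 6 passed the filter on low counts, and none was called by edgeR without a block, where 1 had an unadjusted p below 0.05. Calls of 1 gene, higher in LYVE1+ cells, were made by edgeR with the replicate block, without LYVE1+ library 1 and without both libraries numbered 1, and by DESeq2 and limma voom. Maoa, monoamine oxidase A, had a log2 fold change of 0.85 and did not pass.

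Markers of other cell types gave 3 calls, all higher in LYVE1+ cells: Siglech and Cd209a of the dendritic cell list, which resident macrophages also express, and Prox1. These were 2 of 15 tested dendritic cell markers and 1 of 5 tested lymphatic markers. The other marker lists, with 2 to 17 members tested, gave no call. Of all genes 1.82% were called higher. Prox1, the transcription factor of lymphatic endothelium, had 4.03, 1.38 and 1.11 CPM in LYVE1+ and 0, 0.098 and 0 CPM in LYVE1- libraries (adjusted p = 0.0138, and 0.0621 without LYVE1- library 3). Ccl21a, another lymphatic marker, had 5.75, 0.26 and 1.01 CPM against 0.256, 0.098 and 0.199 CPM. Mmrn1 had 0, 0.692 and 0.201 CPM, Flt4 1.92, 0 and 0 CPM and Reln 0.575, 0 and 0 CPM in LYVE1+ libraries. These last genes had no counts in LYVE1- libraries. Pdpn had 3.64, 1.82 and 0.906 CPM against 7.28, 1.47 and 3.78 CPM. The list of 6 summed to 15.9, 4.15 and 3.22 CPM against 7.54, 1.67 and 3.98 CPM. Of 5 tested members 4 had a positive value, 3 with an unadjusted p below 0.05 by edgeR. DESeq2 called 2 of 6 higher. Lyve1 itself stood at 1495 to 2190 CPM in LYVE1+ libraries; the part of lymphatic cells in it was not tested. Fibroblast markers, such as the collagen gene Col1a1 (134, 124 and 131 CPM against 228, 142 and 144 CPM), summed to 457 to 693 CPM in LYVE1+ and 566 to 1069 CPM in LYVE1- libraries.

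Whether the LYVE1 contrast differed between fat and aorta was tested with the difference of the contrasts. The aortic sorts were tested in the same fit, and 77 genes were called there (0.542%), 16 higher (0.113%) and 61 lower (0.429%) in LYVE1+ cells. The difference between the tissues in the LYVE1 contrast was called for 22 genes (0.155%), of which 21 had the lower value in fat (0.148%), and 16 of these are on the mitosis or replication list. Mki67 had 71.7 ± 10.6 CPM in aortic LYVE1+ and 75.6 ± 13.7 CPM in aortic LYVE1- libraries (mean ± SD, n = 3), a log2 fold change of -0.07 there against -1.90 in fat. The difference was -1.82 (SE 0.28, adjusted p = 0.0234). For Hmmr it was -3.20 (SE 0.47, adjusted p = 0.0206), with 10.8 ± 1.6 and 6.5 ± 1.56 CPM in the aortic sorts, and for Cdc20 it was -2.30 (SE 0.31, adjusted p = 0.0206). The median log2 fold change of the mitosis list was 0.10 in the aorta and -1.69 in fat.

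Siglech was the only gene with a call for a higher value in fat (difference 1.65, SE 0.28, adjusted p = 0.0466), having 147 ± 3.32 and 143 ± 32 CPM in the aortic sorts. The class II, resident and monocyte genes named above had no call for a difference between tissues; for Cd74 it was 0.82 (adjusted p = 0.908), for Vsig4 1.62 (0.734), for Adgrg1 2.63 (0.134), for Vcam1 -1.46 (0.136) and for Lyve1 0.73 (0.913). All fat libraries and aortic LYVE1+ libraries 1 and 2 carry the prefix RMM in their identifiers, while aortic LYVE1+ library 3 and the 3 aortic LYVE1- libraries carry RHH, so sort and prefix nearly coincide in the aorta. With the prefix as a term no difference between tissues was called by edgeR (651 genes had an unadjusted p below 0.05), with -2.01 (SE 0.33) for Mki67. The count also fell to 0 without LYVE1+ library 2 or LYVE1- library 2 or 3 of fat, and without library 1 or 3 of either aortic sort (722 to 848 genes with an unadjusted p below 0.05), and to 5 and 1 without fat LYVE1+ library 3 and aortic LYVE1- library 2. It was 84 without both fat libraries numbered 1. DESeq2 called 108 and limma voom 89 on all libraries.

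**Figure D5:**
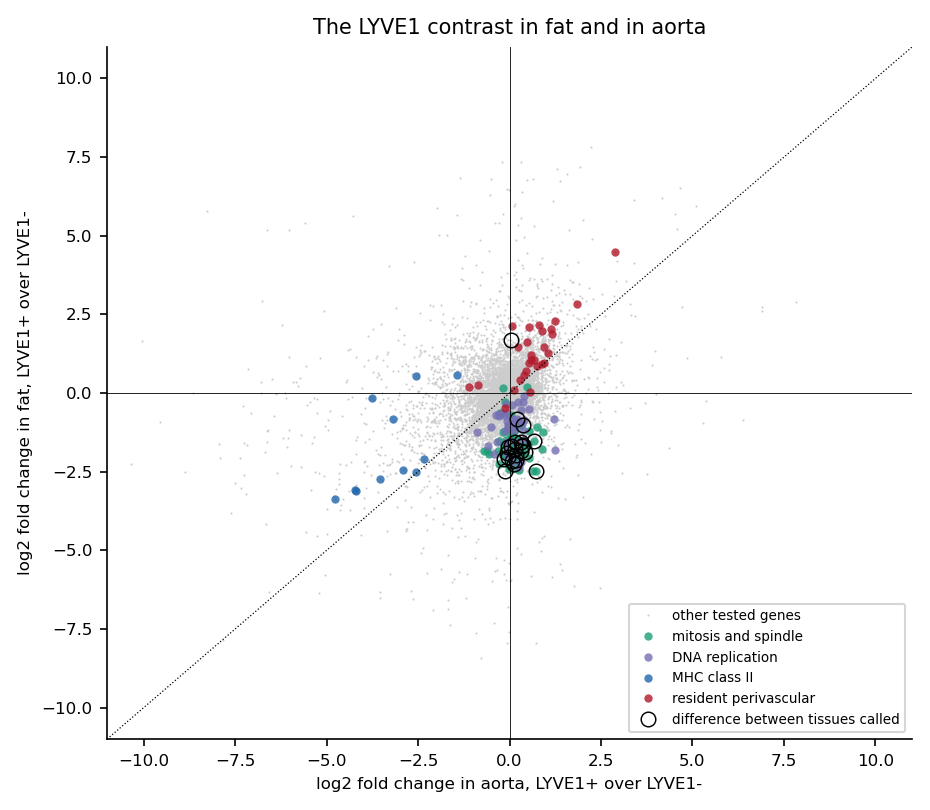
Log2 fold change of LYVE1+ over LYVE1- in aorta (horizontal) and in fat (vertical) for the 14216 tested genes, with 4 gene lists coloured and the 22 genes with a called difference between the tissues ringed; the dotted line marks equal values. Mitosis and replication genes lie near 0 in the aorta and below 0 in fat, and 9 of the 11 class II genes lie below 0 in fat.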

How the data were processed

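The data are counts of reads per gene from SMART-seq2 libraries made from 2 ng of RNA and read as pairs of 51 cycles, per the labels' protocols. The submitters' processing notes list the build GRCm38 and the tools featureCounts 1.5.0, STAR 2.5.2b and edgeR 3.14.0. The strand setting and annotation release are not given in the sources used here, so antisense or overlapping genes (among those named Npr1, Fcna, C2, Gprc5b, Bhlhe41, H2-DMa, Cxcl16, Ang, Hyal1, Adam15, Ctsl, Icam1, Cebpd and others) cannot be told apart. The authors deposited whole-number counts for all libraries in 1 table. Symbols and coordinates came from GENCODE M21 for 46005 of 46517 identifiers.

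Counts were fitted here with edgeR 4.0.16 in R 4.3.3 (quasi-likelihood test, TMM scaling, filterByExpr, 1 mean per group over 12 libraries, 8 residual degrees of freedom) with Benjamini-Hochberg adjustment over 14216 genes and a threshold of 0.05. The alternatives used DESeq2 1.42.0, limma 3.58.1, other scalings and filters, a replicate block and libraries left out. Libraries of the fat sorts with the same number in the labels deviated together (correlations 0.486, 0.279 and 0.184), but libraries 2 and 3 also correlated across numbers (0.192 and 0.225); those of the aorta did not (-0.044, -0.077 and -0.170). On simulated counts of 14216 genes for the fat comparison, the fit recovered 33% of 2-fold and 86% of 4-fold changes.

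The libraries and gene lists compared were chosen with earlier results of these data known. The genes named are the 15 called genes with the largest change in each direction with a mean of at least 16 CPM, no overlap and a gene name, up to 4 called members of each list by adjusted p (the 2 most abundant where none was called), the gate genes, and the list members with the largest called difference between tissues. Other list members were named after their values were seen. Some genes that fall under this rule are not reported here. Intervals for counts of 0 use a floor of 3 counts and cover counting error only.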

Additional observations from a re-analysis of the deposited data

Results flagged for a closer look

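The change with LYVE1 differed between fat and aorta by a test of the difference itself (edgeR, adjusted p below 0.05) for 10 of the genes named. Of the genes of mitosis and the spindle, the difference, fat minus aorta on the log2 scale, was -3.20 for Hmmr, -2.30 for Cdc20, -1.82 for Mki67, -1.72 for Top2a and -1.70 for Racgap1. Of the replication genes it was -2.16 for Tk1, -1.99 for Rrm2, -1.70 for Mcm5 and -1.02 for Mcm3. For Siglech it was 1.65, the only positive value. In fat each division gene was lower in all 3 LYVE1+ libraries than in all 3 LYVE1- libraries, and Siglech was higher. In the aorta Tk1 had 20.6 ± 3.46 CPM in LYVE1+ and 18.2 ± 2.46 CPM in LYVE1- libraries, and Rrm2 had 18.9 ± 4.22 and 19.6 ± 2.8 CPM (mean ± SD, n = 3). No difference between tissues was called with the library identifier prefix as a term.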

How the results depend on the processing

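All 558 genes kept their direction in every alternative that tested all of them (553 were tested with a stricter filter and 549 in fat alone). Genes called, and those higher and lower, numbered 1022, 484 and 538 with DESeq2, 1364, 617 and 747 with limma voom, 915, 446 and 469 with the replicate block, 202, 83 and 119 with the fat libraries alone, 1426, 682 and 744 with both of these choices, and 887, 406 and 481 without both libraries numbered 1; 451 were lower with no filter on low counts. Leaving out each fat library in turn gave 219 to 1025 genes called, 98 to 469 higher and 121 to 556 lower. The difference between tissues was called for 108 genes with DESeq2, 72 with no filter, 89 with limma voom, 84 without both fat libraries numbered 1 and 0 to 47 without single fat libraries. In fits chosen after seeing the data it was called for 0 to 16 genes without single aortic libraries and for 0 with the identifier prefix as a term. Other scalings changed no total by over 1.5 times. Of 104 named calls, 62 held without each single fat library and 52 under all 17 alternatives. Of 72 other called list members, 23 held without each single fat library. Of 42 genes that the text gives by their values without a call, 15 changed direction under at least 1 alternative. Adgre1 had a log2 fold change of 0.09 and 0.07 without LYVE1+ library 1 or LYVE1- library 2 (-0.33 to 0.09 over the fits without 1 library), Itgam -0.11 and -0.02 without LYVE1+ library 2 or 3 (-0.11 to 0.28), and Fcgr1 0.02 with limma voom, 0.26 without LYVE1+ library 1, 0.15 and 0.08 without LYVE1- library 2 or 3 (-0.25 to 0.26), and 0.02 without both libraries numbered 1. The others ranged from -0.15 to 0.29 for Igf1, -0.25 to 0.22 for Pf4, -0.02 to 0.37 for C1qb, -3.08 to 1.93 for H2-Oa, -1.27 to 1.42 for H2-Ob, -2.96 to 0.87 for H2-Eb2, -0.10 to 0.14 for Cd86, -3.24 to 0.08 for Ly6c2, -0.44 to 0.08 for Irf4, -0.45 to 0.15 for Fos, -0.31 to 0.33 for Jun and -0.36 to 0.21 for Egr1. The cause of these shifts was not tested. With 3 libraries a sort, 2-fold changes were often missed.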

Other observations

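Beyond the lists, several called genes had no counts in 1 sort of the fat libraries; they were chosen after their values were seen, and bounds use a floor of 3 counts over the group at 0. Mog, a myelin protein, had 2.11, 2.42 and 1.71 CPM in the LYVE1+ libraries and none in the LYVE1- libraries, at least 19.6-fold higher. The protocadherin Pcdhga5 had 1.34, 0.952 and 2.11 CPM in LYVE1+ libraries and was at least 13.7-fold higher. Zc3hav1l had 4.98, 2.45 and 1.99 CPM in the LYVE1- libraries only, at least 26.6-fold lower in LYVE1+ cells. All of these levels are low.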
